A study of Mus musculus with 12 samples.

Results

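The mesothelial markers of visceral fat were followed over 12 arrays of mouse abdominal fat. They were taken as the 10 probe sets whose gene symbol is Msln, Upk3b, Upk1b, Lrrn4, Gpm6a, Wt1, Krt8, Krt18, Krt19 or Rspo1, out of 23185 probe sets that each name 1 gene. All 10 were on the array and no filter on low values was applied, so each entered every comparison. The animals, aged 12 weeks, belonged to a stock that carries the db allele of the leptin receptor gene Lepr, and the genotype label reads WT for all of them. Each received 4000000000 plaque-forming units (pfu) of adenovirus in all, coding for short hairpin RNAs (shRNAs), and abdominal fat was frozen 1 week later. Control mice received only the control shRNA virus. LCN13 mice received 2000000000 pfu of LCN13 shRNA virus with 2000000000 pfu of the control virus, and TSC22D4 mice received the TSC22D4 shRNA virus in the same mixture. Mice of the combined group received 2000000000 pfu of each of the LCN13 and TSC22D4 viruses and no control virus, so in every comparison with control the gain of an shRNA virus and the loss of control virus cannot be told apart. From 7 animals a group, the 3 called representative were put on arrays, which is not a random choice. The comparisons set each shRNA against control and ask whether the effect of the TSC22D4 shRNA depends on that of LCN13, a secreted lipocalin.

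The mesothelium is the single sheet of flattened cells that covers the abdominal organs, the body wall and the visceral fat pads, and subcutaneous fat has none. Its cells arise from mesoderm, yet they carry keratins and apical membrane proteins like an epithelium, together with the transcription factor WT1. A piece of visceral fat therefore holds mesothelial RNA beside that of adipocytes, vessels and immune cells. In bulk tissue, fewer cells of a type and less RNA per cell cannot be told apart.

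The members fall into cell-surface proteins (Msln, Upk3b, Upk1b, Lrrn4, Gpm6a), a transcription factor (Wt1), intermediate filament keratins (Krt8, Krt18, Krt19) and a secreted Wnt agonist (Rspo1). They lie on 8 chromosomes, and among them only Krt8 and Krt18 are neighbours. Promoters of 6 of the 10 were present in the RefSeq promoter table of GRCm38.p6; Msln, Upk1b, Wt1 and Krt19 were not listed. They are shown because, as described further on, the genes Upk3b, Lrrn4 and Gpm6a followed each other from array to array, while Krt8, Krt18 and Rspo1 followed a different course. Each runs 5′ to 3′ along the gene's own strand, from 250 bases before the start site to 50 after it, and capitals mark the letters CATTCC or their reverse complement GGAATG, the core recognised by TEAD transcription factors. For Gpm6a the first of its start sites in the table is given.
Upk3b, chr5:136038246-136038545, plus strand: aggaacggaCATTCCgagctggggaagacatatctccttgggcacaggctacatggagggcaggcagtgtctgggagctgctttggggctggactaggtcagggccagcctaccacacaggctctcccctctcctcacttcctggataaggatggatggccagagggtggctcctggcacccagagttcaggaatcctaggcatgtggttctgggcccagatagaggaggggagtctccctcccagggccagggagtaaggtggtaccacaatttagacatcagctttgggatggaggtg
Lrrn4, chr2:132880813-132881112, minus strand: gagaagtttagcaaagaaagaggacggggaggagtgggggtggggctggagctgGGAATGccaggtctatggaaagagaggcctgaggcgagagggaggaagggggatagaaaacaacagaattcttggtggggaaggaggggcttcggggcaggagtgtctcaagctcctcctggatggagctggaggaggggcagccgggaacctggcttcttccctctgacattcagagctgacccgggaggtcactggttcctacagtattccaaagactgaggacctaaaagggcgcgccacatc
Gpm6a, chr8:54779184-54779483, plus strand: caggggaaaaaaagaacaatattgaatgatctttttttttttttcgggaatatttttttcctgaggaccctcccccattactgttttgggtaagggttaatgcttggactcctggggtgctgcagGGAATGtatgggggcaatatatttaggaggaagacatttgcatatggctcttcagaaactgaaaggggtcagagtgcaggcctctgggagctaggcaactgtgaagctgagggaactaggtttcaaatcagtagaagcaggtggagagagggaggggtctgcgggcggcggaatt
Krt8, chr15:102004293-102004592, minus strand: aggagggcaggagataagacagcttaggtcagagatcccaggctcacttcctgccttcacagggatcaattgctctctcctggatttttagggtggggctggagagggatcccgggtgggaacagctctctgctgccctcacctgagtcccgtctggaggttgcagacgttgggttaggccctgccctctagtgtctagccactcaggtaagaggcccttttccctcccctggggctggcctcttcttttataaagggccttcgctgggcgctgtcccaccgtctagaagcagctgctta
Krt18, chr15:102027966-102028265, plus strand: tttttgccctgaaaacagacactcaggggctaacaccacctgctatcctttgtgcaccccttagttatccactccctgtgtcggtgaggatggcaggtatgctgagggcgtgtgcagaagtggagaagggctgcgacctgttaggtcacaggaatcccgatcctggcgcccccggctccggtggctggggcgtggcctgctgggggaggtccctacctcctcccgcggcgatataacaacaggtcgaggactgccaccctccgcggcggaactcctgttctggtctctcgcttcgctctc
Rspo1, chr4:124986180-124986479, plus strand: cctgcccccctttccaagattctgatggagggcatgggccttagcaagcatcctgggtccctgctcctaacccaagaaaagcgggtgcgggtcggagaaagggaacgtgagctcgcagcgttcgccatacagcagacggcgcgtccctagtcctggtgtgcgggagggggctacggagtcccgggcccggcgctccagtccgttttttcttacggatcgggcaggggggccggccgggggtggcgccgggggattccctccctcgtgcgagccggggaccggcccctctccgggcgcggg
Counted from the start site along the printed strand, the TEAD core began at -241 in Upk3b, -196 in Lrrn4 and -125 in Gpm6a, and it was not in the printed windows of Krt8, Krt18 and Rspo1. It was not in the window of the second Gpm6a start site either, which holds the TATA letters at -211. It occurs on either strand in 14.7% of the 32851 promoters of that table. The TATA box letters TATAAA were present in the Krt8 window on both strands (13.6% of promoters). These overlapping matches began at -1 and -3, at the start site itself. The GC box letters GGGCGG were in the printed window of Gpm6a at 38, after the start site (35.7%). The WT1 motif GCGTGGGAG was in none of the windows of these members (0.472% of promoters). The letters searched were chosen with the array results known, and a match describes the sequence only.

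Values are the authors' log2 levels. Probe sets differ in how strongly they respond, so levels are compared between arrays for 1 gene and not between genes. Adipocyte genes were high on every array, with Adipoq, the hormone adiponectin, at 12.20 to 12.45 and Plin1, the lipid droplet coat protein perilipin, at 12.60 to 12.80. Tsc22d4, a target of the shRNA, lay at 7.56 to 7.88 with no separation of the groups. Genes at least 1 log2 unit above all other arrays numbered 15 in TSC22D4 replicate 11, 14 in replicate 10 (led by the seminal vesicle gene Svs5), 11 in replicate 12 and at most 4 elsewhere. Those of replicate 11 included genes of the epididymis, with Lcn8 at 10.87 and Adam7 at 8.41 against at most 6.72 and 6.30 on the other arrays. No member was highest or lowest on replicate 11.

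Levels on each array are given below in a fixed order, control replicates 1, 2 and 3, LCN13 replicates 5, 6 and 8, TSC22D4 replicates 10, 11 and 12, and combined replicates 13, 14 and 16. Upk3b and Upk1b code for uroplakins, membrane proteins first known from the urothelial plaque that are also made by mesothelial cells. Upk3b read 9.39, 8.10 and 8.64 in control, 9.98, 9.79 and 8.18 in LCN13, 8.60, 8.52 and 9.45 in TSC22D4, and 9.02, 9.07 and 8.79 in the combined group. Upk1b read 8.34, 7.65 and 7.92 in control, 9.25, 9.03 and 7.60 in LCN13, 7.97, 7.85 and 8.55 in TSC22D4, and 8.15, 8.21 and 7.99 in the combined group. Both genes were highest in LCN13 replicates 5 and 6, while LCN13 replicate 8 was the lowest of all arrays for Upk1b and the second lowest for Upk3b. The range of each group overlapped that of every other. Upk3b lies beside the similar gene Upk3bl, whose own probe set stayed at 5.96 to 6.12, so shared signal between the pair cannot be settled from these values.

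Msln codes for mesothelin, a lipid-anchored surface protein. It read 7.63, 7.03 and 6.84 in control, 7.89, 7.98 and 7.03 in LCN13, 7.15, 7.09 and 7.19 in TSC22D4, and 7.11, 7.17 and 7.27 in the combined group. Lrrn4, a leucine-rich repeat membrane protein, read 6.72, 6.35 and 6.39, then 7.06, 7.35 and 6.28, then 6.44, 6.36 and 6.75, and 6.56, 6.65 and 6.42 in the same order. Gpm6a, a membrane glycoprotein best known from neurons, read 9.71, 8.73 and 9.09, then 10.56, 10.54 and 9.22, then 9.24, 8.92 and 9.95, and 9.55, 9.45 and 9.60. These genes repeated the uroplakin order in LCN13, with replicates 5 and 6 high and replicate 8 low. Within control, replicate 1 was the highest for all of Msln, Lrrn4, Gpm6a, Upk3b and Upk1b, and within TSC22D4, replicate 12 was. Wt1, the zinc finger factor that marks mesothelium from the embryo onwards, read 7.64, 7.58 and 7.31, then 7.85, 7.99 and 7.16, then 7.36, 7.26 and 7.73, and 7.58, 7.65 and 7.48. Its lowest array was again LCN13 replicate 8, and control replicate 1 and TSC22D4 replicate 12 were again the highest of their groups.

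Krt8 and Krt18 code for the keratin pair that forms the filaments of simple epithelia. Krt8 read 7.39, 7.34 and 7.99 in control, 8.18, 8.14 and 8.04 in LCN13, 7.26, 7.36 and 6.94 in TSC22D4, and 7.33, 6.92 and 7.64 in the combined group. Krt18 read 6.34, 6.71 and 7.13, then 7.06, 7.40 and 7.33, then 6.58, 6.63 and 6.45, and 6.75, 6.39 and 6.89. Here LCN13 replicate 8 was as high as its group, and the highest control was replicate 3, not replicate 1. Krt19, a keratin that pairs with Krt8 in simple epithelia, read 6.28, 6.14 and 6.35, then 6.54, 6.58 and 6.40, then 6.30, 6.21 and 6.29, and 6.21, 6.18 and 6.38. Its total range was 0.45, and 49.0% of genes had a lower mean, so it lay in the dim middle of the table. A named pseudogene of Krt8 is annotated, so a part of its signal may come from a copy. Rspo1 codes for R-spondin 1, a secreted protein that binds LGR receptors and keeps Wnt receptors on the cell surface. It read 8.35, 8.35 and 9.01 in control, 9.63, 9.72 and 9.10 in LCN13, 8.61, 8.44 and 8.46 in TSC22D4, and 8.66, 8.48 and 8.90 in the combined group. All LCN13 arrays were above all others for Rspo1, Krt8 and Krt19, in each case by a narrow gap to control replicate 3 or combined replicate 16.

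**Figure D1:**
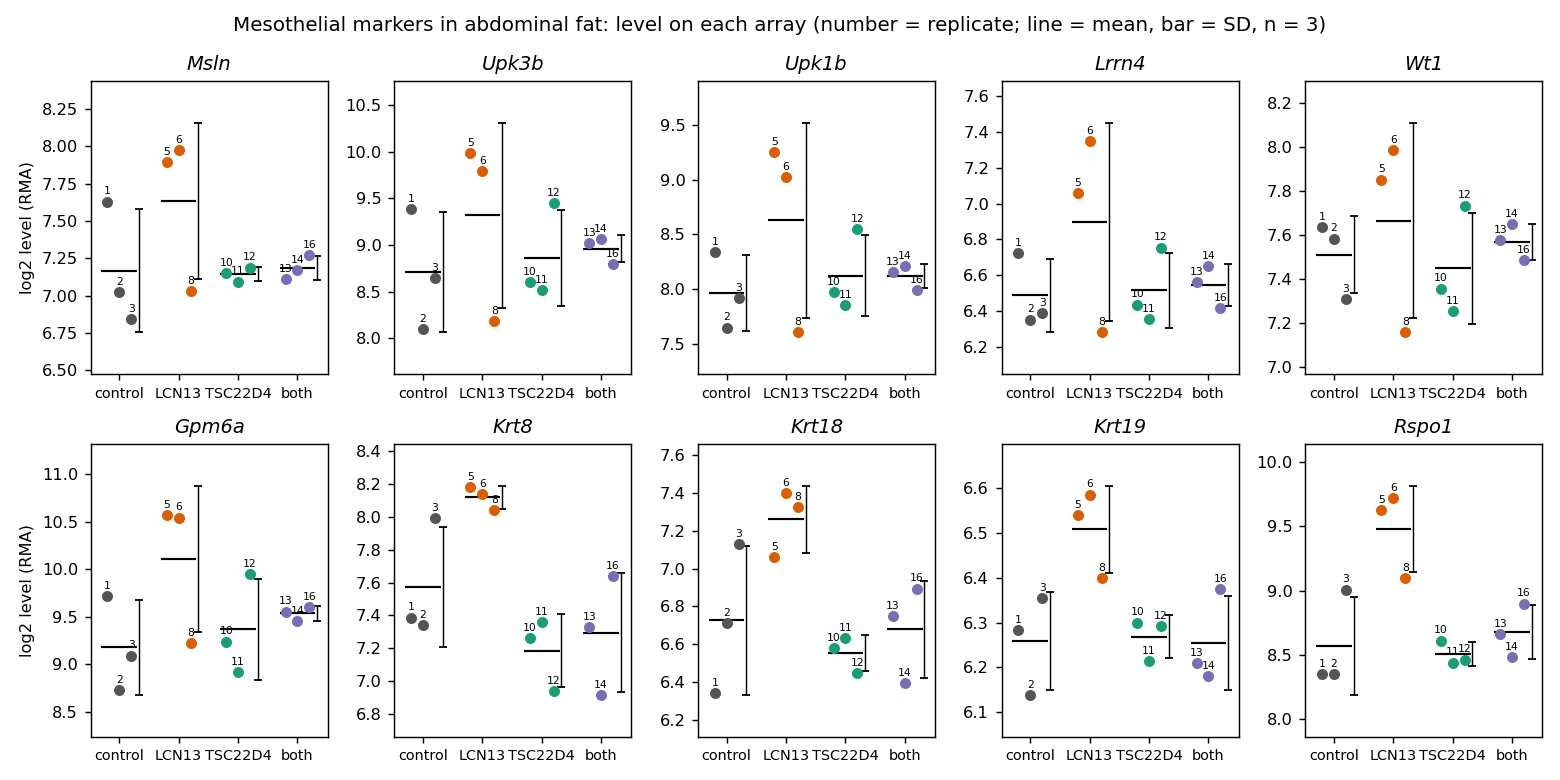
Log2 level of each member on each array, with the replicate number above its point, the group mean as a line and the SD (n = 3) as a bar. LCN13 replicates 5 and 6 lie at the top for the 6 genes from Msln to Gpm6a while LCN13 replicate 8 lies low, and all LCN13 arrays lie high for Krt8, Krt18, Krt19 and Rspo1.

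The members varied widely among arrays of the same group. The residual SD about the group means was 0.65 for Upk3b, 0.53 for Gpm6a, 0.52 for Upk1b, 0.34 for Msln and 0.32 for Lrrn4, and between 0.26 and 0.28 for Krt18, Wt1, Rspo1 and Krt8. The median over all genes was 0.0647. Only 0.41% of genes had a larger residual SD than Upk3b and 2.62% a larger one than Krt18. Krt19, at 0.093, was near the bulk of the genes, with 32.8% above it. This spread sets how large a group difference could be called for each member.

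With the LCN13 shRNA, all 10 members had a higher mean than in control, and 0 of 10 passed the test at a limma adjusted p under 0.05 over all genes, where 1.44% of all genes did. The median log2 change of the members was 0.54, beside 0.0040 over all genes tested, and the range was 0.15 (Wt1) to 0.93 (Gpm6a). At an unadjusted p under 0.05 stood 5 members (Krt8, Krt18, Krt19, Rspo1 and Gpm6a), where 12.6% of all genes did. The adjusted p nearest the threshold was that of Rspo1, whose mean was 9.48 ± 0.34 (SD, n = 3) in LCN13 and 8.57 ± 0.38 in control, a log2 difference of 0.91 (SE 0.21, 1.88-fold, limma adjusted p = 0.0829). Gpm6a differed by 0.93 (SE 0.40, limma adjusted p = 0.381), Krt8 by 0.55 (SE 0.21, adjusted p = 0.318), Krt18 by 0.53 (SE 0.19, adjusted p = 0.279) and Krt19 by 0.25 (SE 0.07, adjusted p = 0.162). Differences were 0.66 (SE 0.39) for Upk1b, 0.61 (SE 0.49) for Upk3b, 0.47 (SE 0.25) for Msln, 0.41 (SE 0.24) for Lrrn4 and 0.15 (SE 0.21) for Wt1, with limma adjusted p between 0.504 and 0.836. The groups did not overlap for 3 members (Krt8, Krt19 and Rspo1), with LCN13 above control, as they did not for 8.75% of all genes.

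The call on Rspo1 depended on the fit. Its limma adjusted p was 0.0137 with array weights (log2 difference 1.07), 0.0266 over genes above the median level, 0.0357 with a trended prior variance, 0.022 without control replicate 3 and 0.0441 without LCN13 replicate 8. Krt19 passed with array weights alone (0.32, limma adjusted p = 0.0374). LCN13 replicates 5 and 6 decided the sign for 5 members. With both left out, LCN13 minus control became -0.53 for Upk3b, -0.36 for Upk1b, -0.35 for Wt1, -0.21 for Lrrn4 and -0.13 for Msln, and stayed positive for Rspo1 (0.53), Krt18 (0.60), Krt8 (0.47), Krt19 (0.14) and Gpm6a (0.05). In that fit 1 LCN13 array is assumed to vary like the other groups, and no member passed.

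With the TSC22D4 shRNA, the members showed no common direction: 5 of 10 were above control, the median log2 change was -0.0062, beside -0.0022 over all genes, and 0 of 10 passed the limma test (1.17% of all genes), nor did any at an unadjusted p under 0.05 (11.8%). The most negative value was that of Krt8, -0.39 (SE 0.21, 95% interval -0.86 to 0.09). With both shRNAs, 7 of 10 were above control, the median was 0.058, and 0 of 10 passed in limma (1.34% of all genes), nor did any unadjusted (11.0%). Gpm6a had the highest value, 0.36 (95% interval -0.54 to 1.26), and Krt8 the lowest, -0.28 (95% interval -0.76 to 0.20). For the uroplakins a log2 change of 1 lay inside the interval in both comparisons, so these arrays cannot show that their levels stayed alike. These comparisons use the same control arrays as the LCN13 comparison.

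Set against the TSC22D4 group, LCN13 means were higher for all 10 members, with a median log2 difference of 0.50. Again 0 of 10 passed in limma (1.03% of all genes), and 4 stood at an unadjusted p under 0.05 (17.7%). Rspo1 differed by 0.98 (SE 0.21, limma adjusted p = 0.0673), Krt8 by 0.93 (SE 0.21, adjusted p = 0.0736), Krt18 by 0.71 (SE 0.19, adjusted p = 0.111) and Krt19 by 0.24 (SE 0.07, adjusted p = 0.133). These same 4 were the members whose groups did not overlap, with LCN13 above TSC22D4, beside 15% of all genes. Krt8 and Rspo1 both passed with array weights (limma adjusted p = 0.028 and 0.0174), over genes above the median level (0.0373 and 0.0315) and with a trended prior (0.0497 and 0.0404). Without control replicate 3 both passed as well (limma adjusted p = 0.0461 and 0.0384), and without LCN13 replicate 8 Rspo1 did (0.0286). Without LCN13 replicates 5 and 6, LCN13 minus TSC22D4 became negative for Upk3b (-0.68), Upk1b (-0.52), Wt1 (-0.29), Lrrn4 (-0.23), Gpm6a (-0.14) and Msln (-0.11). It stayed positive for Krt8 (0.86), Krt18 (0.77), Rspo1 (0.59) and Krt19 (0.13).

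Replacing the control virus of the LCN13 mixture with the TSC22D4 shRNA virus went with lower means of all 10 members. The median was -0.48, with a range from -0.83 (Krt8) to -0.10 (Wt1). No member passed in limma (0 of 10, beside 0.00863% of all genes), and 4 had an unadjusted p under 0.05 (10.7% of all genes). Krt8, Krt18, Krt19 and Rspo1 lay below all LCN13 arrays in the combined group, as did 9.22% of all genes. The interaction, which asks whether the TSC22D4 effect differs with and without the LCN13 shRNA, was negative for all 10 members, from -0.76 (Gpm6a) to -0.03 (Wt1), with limma adjusted p between 0.611 and 0.998 (0.397% of all genes passed), and 2 members had an unadjusted p under 0.05 (7.08% of all genes). Without LCN13 replicates 5 and 6 the interaction became positive for Upk3b (0.63), Wt1 (0.47), Upk1b (0.36), Lrrn4 (0.23), Msln (0.18) and Gpm6a (0.12). For these genes combined minus LCN13 was then positive too, from 0.15 (Msln) to 0.78 (Upk3b). Both values stayed negative for Krt8, Krt18, Krt19 and Rspo1. The comparisons that involve LCN13 mice, and the interaction, use the same LCN13 arrays, so their shared directions are not separate evidence. The moderated F test over the 4 groups called 0 of 10 (1.61% of all genes), 4 being under 0.05 unadjusted (16.1%). Its lowest limma adjusted p values were 0.102 (Rspo1) and 0.133 (Krt8).

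**Figure D2:**
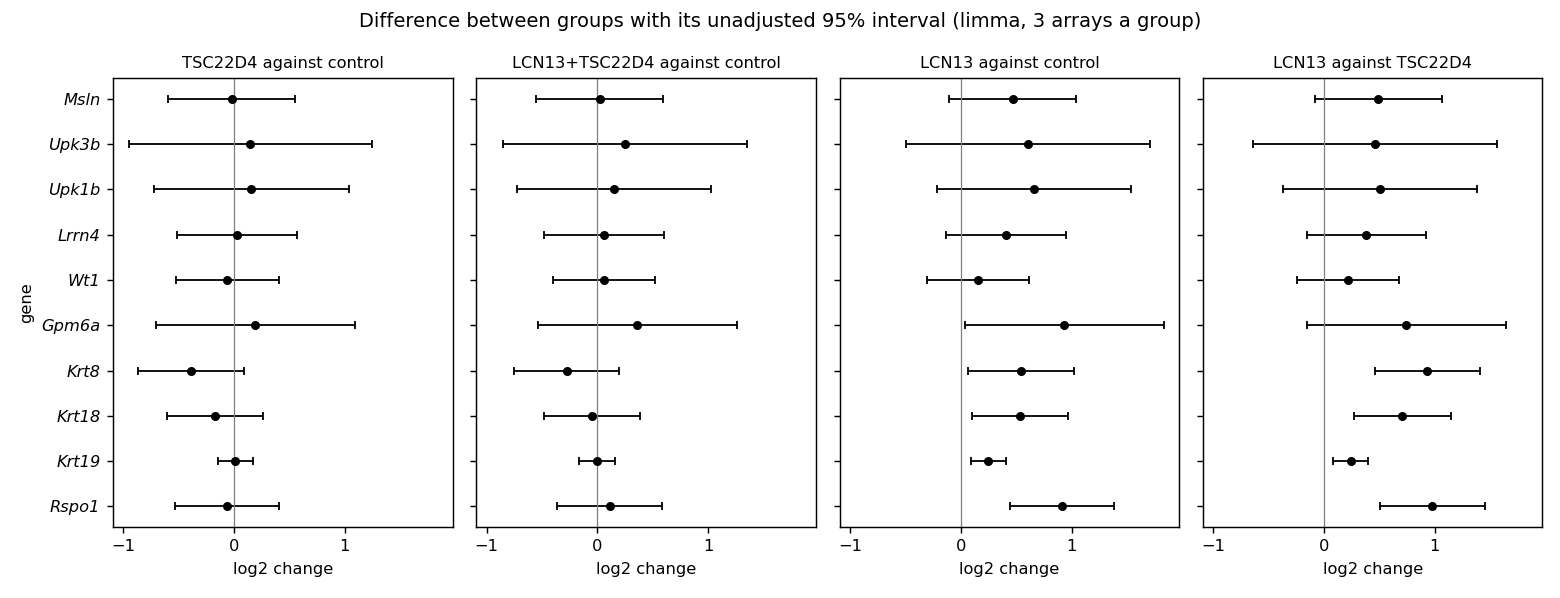
Difference in log2 level between groups for each member, as a point with its unadjusted 95% interval from limma (3 arrays a group). Intervals of Krt8, Krt18, Krt19 and Rspo1 lie above 0 in both LCN13 panels, those of the uroplakins, Msln, Lrrn4 and Wt1 span 0 in every panel.

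Whether members rise and fall together among mice of 1 group was examined on deviations from the group means, over the 45 pairs of members and all 12 arrays. Pearson r was at least 0.8 in 16 of 45 pairs, beside 1.21% of all pairs of a gene with a member. The members did not form 1 set. Msln, Upk3b, Upk1b, Lrrn4, Wt1 and Gpm6a gave r between 0.80 and 0.98 in all 15 pairs among them, with a median of 0.89. Krt8, Krt18, Krt19 and Rspo1 gave r between 0.35 and 0.85 in their 6 pairs, with a median of 0.69. Across the sets, the 24 pairs had a median of 0.056 and none reached 0.8. Krt8 and Krt18 gave negative r with each of the 6 genes, -0.09 to -0.50, while Krt19 and Rspo1 gave positive r with each, 0.20 to 0.63. Without LCN13 replicates 5 and 6, Rspo1 gave negative r with each, -0.06 (Gpm6a) to -0.62 (Wt1). Krt19 then ranged from -0.27 (Wt1) to 0.46 (Gpm6a). The sets were formed after the values were seen, and no test was made on them.

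The uroplakins were the closest pair. Upk3b and Upk1b had r = 0.981 and Spearman rho = 0.958, each with an exact within-group permutation p of 0.000772, the smallest that the 1296 orders can give, and an adjusted p of 0.0347 over the 45 pairs. Without the 2 arrays farthest from the median of Upk3b, r was 0.984. The count of pairs that passed was 0 without 9 of the 12 single arrays. It was 3 without control replicate 2, 3 without LCN13 replicate 5 and 4 without LCN13 replicate 6. Fewer orders are possible whenever an array is left out. A single pair then cannot pass after adjustment over the 45 pairs, whatever its r, so a count of 0 there says little. The same holds without LCN13 replicates 5 and 6. With the liver marker mean regressed out of each gene the count was 16, but reordering what remains is not an exact test. In the main analysis no other pair passed the adjusted threshold, and 16 of 45 had an unadjusted p under 0.05. An exact permutation p adjusted to 0.069 over the 45 pairs was shared by 7 pairs. They include Upk3b with Gpm6a (r = 0.971, rho = 0.923), Upk1b with Gpm6a (r = 0.950, rho = 0.909), Lrrn4 with Wt1 (r = 0.939, rho = 0.881) and Rspo1 with Krt19 (r = 0.846, rho = 0.853). The keratin partners Krt8 and Krt18 had r = 0.790 and rho = 0.741 (exact permutation p = 0.030, adjusted p = 0.123). A few arrays carry much of these values, and reordering 3 arrays within each of 4 groups allows few distinct outcomes.

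LCN13 replicate 8 had the greatest weight. Without it, the 15 pairs of the first set had a median r of 0.65, the lowest being 0.475, and 4 reached 0.8, while the 6 pairs of the second set had a median of 0.80 and the 24 pairs across had a median of -0.365. Control replicate 3 bore on the second set, whose lowest r became 0.0665 and median 0.527 without it. Leaving out any of the other arrays kept the median of the first set between 0.882 and 0.941. With LCN13 replicates 5 and 6 both left out, the medians were 0.721 within the first set, 0.826 within the second and -0.396 across them. All 15 and all 6 pairs within the sets stayed positive in each of these settings.

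**Figure D3:**
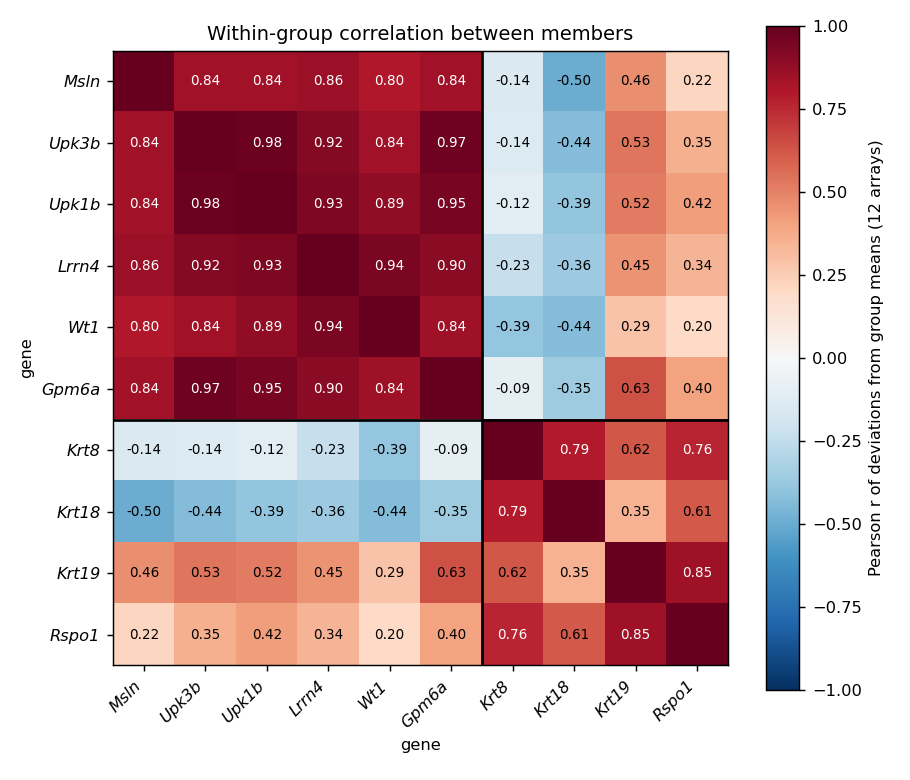
Pearson r between members over the deviations of 12 arrays from their group means, with lines between the sets. The upper left block holds r of 0.80 to 0.98, the lower right block 0.35 to 0.85, and the blocks across run from -0.50 to 0.63.

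On single arrays the sets often went apart. In control replicate 1 the first set lay 0.402 above its group mean on average, with 6 of 6 genes above it, while the second lay 0.192 below. Control replicate 3 was the opposite, with the first set at -0.139 and 0 of 6 above, and the second at 0.339 and 4 of 4 above. LCN13 replicate 8 had the largest deviation, -0.795 for the first set against -0.126 for the second. TSC22D4 replicate 12 stood at 0.36 and -0.0924, and combined replicate 16 at -0.0581 and 0.224. On these arrays the mesothelial label thus covered 6 genes that followed each other closely and the keratins Krt8 and Krt18, whose r with them was below 0. Krt19 and Rspo1 lay in between over all 12 arrays. Without LCN13 replicates 5 and 6, r of Rspo1 with each of the 6 genes was below 0 as well. Krt19 had r = 0.634 with Gpm6a, 0.620 with Krt8 and 0.347 with Krt18, so it is not clearly placed in either set.

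**Figure D4:**
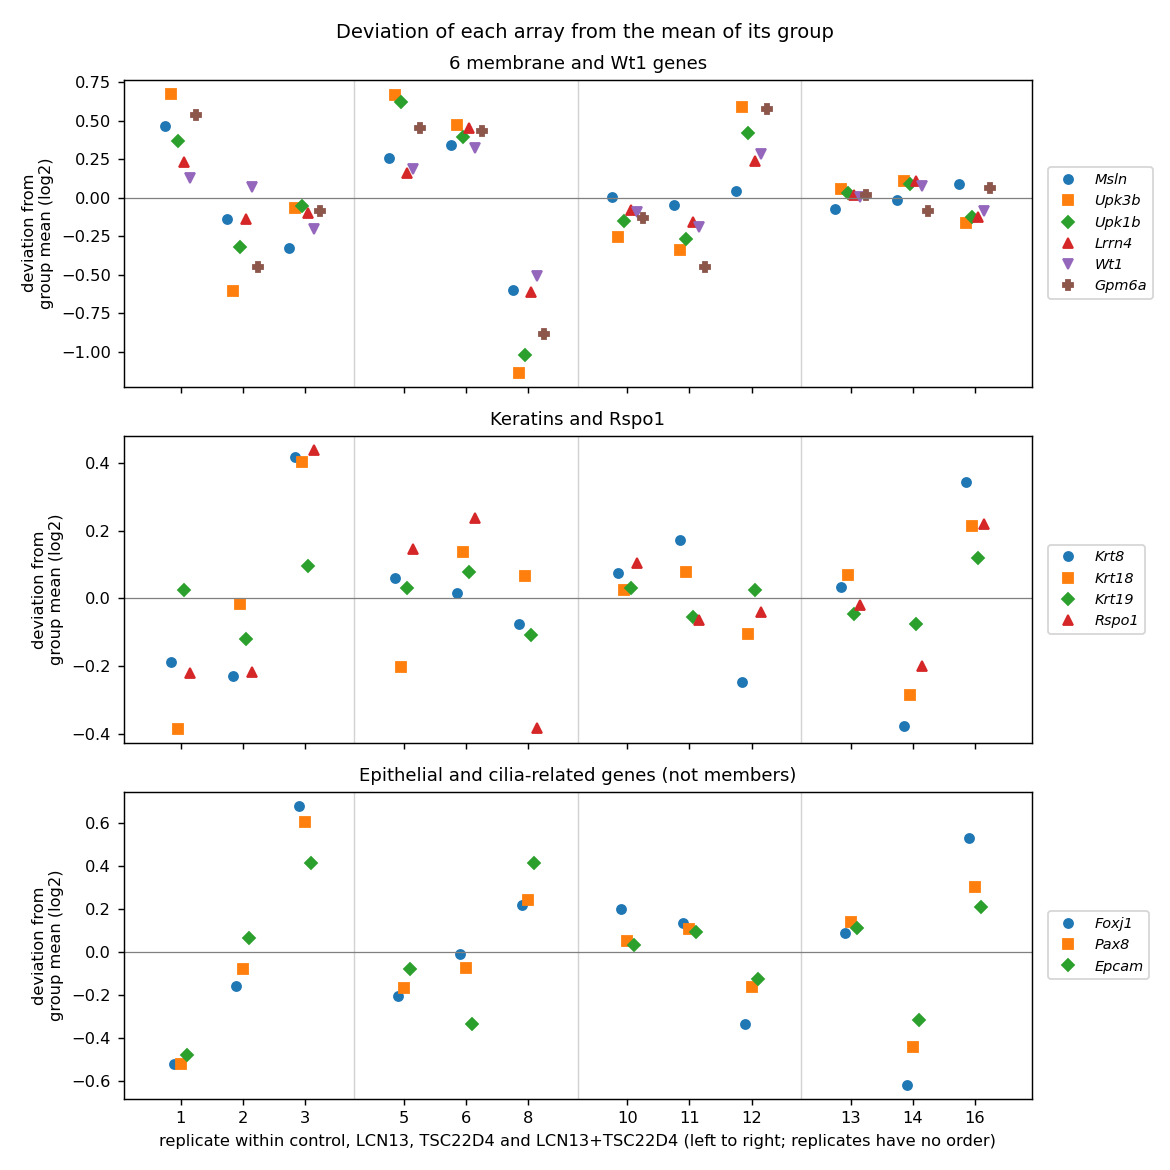
Deviation in log2 level of each gene from its group mean, by array, for the first set of members (top), the second (middle) and 3 genes that are not members (bottom). The first set is high in control replicate 1 and low in LCN13 replicate 8, and the second shares with the bottom panel high values in control replicate 3 and combined replicate 16 and low ones in combined replicate 14.

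Further genes made by mesothelium were 11 in number, all measured. Their mean deviation within groups had r = 0.963 with the mean of the first set and -0.122 with that of the second. In LCN13 replicates 5 and 6, 10 and 9 of the 11 were above their mean over all arrays, and in LCN13 replicate 8 it was 1 of 11. Pkhd1l1, a large fibrocystin-like membrane protein, read 7.25, 7.24 and 6.22 in LCN13, the order of the uroplakins. Nkain4 read 8.03, 8.21 and 7.41 there, and Prg4, the lubricant proteoglycan of serous and joint surfaces, read 8.54, 8.46 and 7.92. Prg4 was higher in control, at 8.68, 8.53 and 8.07. Against control, LCN13 means were higher for 9 of these 11 genes and lower for Prg4 and Cldn15. The median log2 change of the list was 0.12, beside 0.54 for the members, and 1 of the 11 had an unadjusted limma p under 0.05. Muc16, Bnc1 and Calb2 stayed at 5.72 to 6.25 on all arrays, at the low end of the table, where a difference between arrays is poorly seen.

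Podxl was the one gene of that list that passed a comparison with control. It codes for podocalyxin, a sialomucin of mesothelium that endothelium and podocytes also make. It read 9.28, 9.04 and 9.01 in control, 9.62, 9.62 and 9.57 in LCN13, 9.34, 9.40 and 9.49 in TSC22D4, and 9.39, 9.26 and 9.25 in the combined group. LCN13 lay above control on every array, by 0.49 (SE 0.07, limma adjusted p = 0.00872), against 1 of 11 called in the list and 1.44% of all genes. LCN13 replicate 8 was not low for Podxl, unlike for the first set. The adjusted p was 0.104 when only these 2 groups were fitted and 0.216 without LCN13 replicates 5 and 6. Pecam1 and 4 further endothelial markers had a median change of -0.029 in the same comparison, with 0 of 5 called.

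Of the R-spondin list, with receptors and feedback genes of Wnt signalling, 1 of 6 genes passed in LCN13 against control, beside 1.44% of all genes, and all 6 had positive values, as did 12552 of 23185 genes. The gene was Axin2, a negative regulator that Wnt signalling itself induces. It read 6.86, 6.73 and 6.79 in control, 7.06, 7.13 and 7.03 in LCN13, 6.74, 6.72 and 6.73 in TSC22D4, and 6.75, 6.87 and 6.78 in the combined group. LCN13 lay above every other array, by 0.28 against control (SE 0.04, limma adjusted p = 0.0103) and 0.35 against TSC22D4 (SE 0.04, limma adjusted p = 0.0188). Without each array in turn the first difference stayed called, with adjusted p up to 0.0428, and the second was lost in 5 of 12 fits, with adjusted p up to 0.0748. The first was not called with a trended prior (adjusted p = 0.092) or with only the 2 groups fitted (0.11), nor without LCN13 replicates 5 and 6 (0.229). Znrf3, a ligase that removes Wnt receptors and that R-spondins restrain, read 8.12, 8.10 and 8.37 in control and 8.37, 8.63 and 8.43 in LCN13. It followed Krt8 within groups with r = 0.860, Krt18 with 0.819 and Rspo1 with 0.695, given as description. Lgr4, the R-spondin receptor, lay at 10.58 to 10.88 on all arrays, and Lgr5 at 5.83 to 5.89.

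Relatives of the members within their gene families gave 0 of 13 calls by limma in every comparison made, with at most 2 of 13 at an unadjusted p under 0.05. Over all genes 0.00863% to 1.61% were called and 7.08% to 17.7% stood at that unadjusted p, so these counts are near the background. Within groups, the mean deviation of the 13 relatives had r = 0.641 with the mean of the first set and -0.379 with that of the second. Upk1a, Upk2, Upk3a, Krt20, Rspo2, Rspo3 and Rspo4 stayed between 5.84 and 6.36 on all arrays. Gpm6b, the closest relative of Gpm6a, lay at 9.99 to 10.47 and did not repeat the LCN13 order of Gpm6a, with 10.19, 10.14 and 10.17 in that group.

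Markers of other cell types were set beside the members, and their part in the results was not tested. Markers of other epithelia had within-group r = 0.733 with the mean of the second set and -0.483 with that of the first. This was not particular to them, as the R-spondin list above had 0.736 and -0.553. Among them Epcam, the adhesion molecule of most epithelia that mesothelium usually lacks, had r between -0.68 and -0.84 with each gene of the first set, and in the second set 0.755 with Krt18, 0.605 with Krt8, 0.182 with Rspo1 and -0.065 with Krt19. Epcam read 5.76, 6.31 and 6.66 in control, 6.62, 6.36 and 7.11 in LCN13, 6.23, 6.29 and 6.07 in TSC22D4, and 6.45, 6.02 and 6.55 in the combined group. It was lowest in control replicate 1, where the first set was high, and highest in LCN13 replicate 8, where it was low. Cdh1, or E-cadherin, did not share this opposition, with r between -0.02 (Upk1b) and 0.34 (Msln) in the first set. In the second set its r lay between 0.40 (Rspo1) and 0.58 (Krt8). Cdh1 was 0.60 higher in LCN13 than in TSC22D4 (SE 0.11, limma adjusted p = 0.0381), a call lost in 7 of 12 fits without 1 array. It was the 1 gene called of the 8 on this list, beside 1.03% of all genes. Krt5, Krt14, Krt15, Cldn4 and Cldn7 stayed at 5.77 to 6.20.

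The reproductive tract list as a whole had within-group r = 0.379 with the second set and -0.373 with the first. Within it, Foxj1 and Pax8 followed Krt8 and Krt18. Foxj1, the master factor of motile cilia, read 7.10, 7.46 and 8.30 in control, 7.92, 8.12 and 8.34 in LCN13, 7.22, 7.16 and 6.68 in TSC22D4, and 7.55, 6.85 and 8.00 in the combined group. Pax8, a factor of the oviduct, kidney and thyroid, read 5.86, 6.30 and 6.99, then 6.63, 6.73 and 7.04, then 6.30, 6.35 and 6.08, and 6.47, 5.89 and 6.63. Both were high where Krt8 and Krt18 were, in control replicate 3 and combined replicate 16, and low in combined replicate 14. Within groups Krt18 had r = 0.946 with Pax8 and 0.933 with Foxj1, and Krt8 had 0.819 and 0.900. Krt19 had 0.265 and 0.402, and Rspo1 had 0.514 and 0.583. These pairs were singled out after their values were seen, and Foxj1 and Pax8 passed no comparison. The epididymal Lcn8 and Adam7 of TSC22D4 replicate 11 did not go with either set, whose averages there were -0.243 and 0.033 from the group mean. Ovgp1, which marks oviduct secretory cells, stayed at 5.81 to 5.92.

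The other cell type lists were compared in the same way. Liver markers had within-group r = 0.39 with the first set and 0.403 with the second, and were above their mean in 8 of 8 genes in LCN13 replicates 5 and 6. Alb read 11.12, 11.07 and 9.91 in LCN13 and 11.46 in combined replicate 13, where the first set stood at 0.0103 from its group mean. The liver marker mean was also regressed out of the within-group deviations of each gene. The median r was then 0.881 within the first set and 0.662 within the second. Smooth muscle markers had r = 0.613 and -0.112, with 4 of 4 above control in the LCN13 comparison, a median of 0.34 and 0 called by limma (2 unadjusted). In that comparison liver markers were above control in 8 of 8 genes (median 0.14, up to 1.83 for the largest, 2 unadjusted), fibroblast and preadipocyte markers in 8 of 8 (median 0.19, 4 unadjusted) and adipocyte markers in 7 of 7 (median 0.044, 1 unadjusted), with 0 called in each. Their part in the members' higher means was not tested. Values with the first and second set were -0.231 and -0.383 for adipocyte markers, 0.0164 and -0.533 for fibroblast and preadipocyte markers, 0.0534 and 0.11 for macrophage markers, 0.0859 and -0.317 for endothelial markers, and 0.362 and -0.519 for exocrine pancreas markers. All are descriptions over the same 12 arrays. Dpp4, a peptidase that marks early preadipocytes, was 0.59 higher in LCN13 than in TSC22D4 (SE 0.10, limma adjusted p = 0.0365), a call lost in 6 of 12 fits without 1 array. It was the 1 gene called of the 8 fibroblast and preadipocyte markers, beside 1.03% of all genes. Of these 8, 5 were higher in LCN13 than in TSC22D4, with a median of 0.025.

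Over all named genes, those nearest to the mean within-group deviation of the 10 members were Wnt2b (r = 0.957), Ghrl (0.956), Sh2b3 (0.942), Irf2bp1 (0.939), Nxph1 (0.938), Sema4a (0.935), Pkhd1l1 (0.933), Scn3b, Stmn2 (0.929) and Ighv2-9-1 (0.929). Wnt2b, a secreted Wnt ligand, read 6.75, 6.41 and 6.53 in control, 7.23, 7.22 and 6.35 in LCN13, 6.66, 6.47 and 6.82 in TSC22D4, and 6.66, 6.79 and 6.68 in the combined group. It repeated the high values of LCN13 replicates 5 and 6 and the low value of replicate 8. The lowest r were those of Pigx (-0.955), an immunoglobulin heavy variable gene (-0.949), Khdrbs2 (-0.943), Aamp (-0.938) and Pcgf3 (-0.931). Ghrl (mean 6.08, residual SD 0.044) and Khdrbs2 (mean 5.82, residual SD 0.0089) lay low with little spread. Wnt2b and Pkhd1l1 varied more, with residual SD of 0.28 and 0.35. The genes are the extremes over all named genes, and their r was not tested. The mean of the members was carried by the first set, with which it had r = 0.953, beside 0.294 with the second.

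Taken gene by gene, a choice made after the data were seen, the nearest genes differed between members, also within the first set. Upk3b was nearest to Upk1b (0.981), Fbln1 (0.979), Sh2b3 (0.977) and Gpm6a (0.971), and Upk1b to Upk3b, Wnt2b (0.977), Osr1 (0.973) and Pkhd1l1 (0.972). Gpm6a was nearest to Fbln1 (0.977), Upk3b (0.971) and Chst4 (0.956). The GATA factor Gata6 (0.952) and the T cell receptor gene Trbc2 (0.948) were further down its nearest 8. Lrrn4 was nearest to Plxna4 (0.9735), Tonsl (0.966) and another GATA factor, Gata5 (0.964). Msln was nearest to Wdr86 (0.968) and Zfp362 (0.967) and Wt1 to Thsd4 (0.951) and Chat (0.950), with no member among the nearest 8 of either. Krt8 was nearest to Ovol1 (0.957), Spint2 (0.957) and Lrrc36 (0.957), with Cftr, the chloride channel of secretory epithelia, at 0.943. Krt18 was nearest to Cfap70 (0.979), a protein of motile cilia, Hoga1 (0.974) and Susd4 (0.968). It had Prss8 (0.965), an epithelial membrane protease, among its nearest 8. Genes named from lower in these lists were picked for their known roles and do not describe the lists as a whole. The T cell gene Cd3e, for example, was among the nearest 8 of Msln (0.959). Rspo1 was nearest to Gpr152 (0.941) and Krt19 to Hhipl2 (0.952). Ovol1, Cftr, Thsd4, Chat, Gpr152 and Hhipl2 had mean levels of 5.86 to 5.99, at the low end of the table. A difference between arrays is poorly seen there.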

How the data were processed

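RNA of abdominal fat from 12 mice, 3 in each of 4 groups, was measured on Affymetrix arrays. The authors deposited 1 log2 value per probe set and array, made with RMA per the submitters' processing notes. No RMA version, probe set definition or genome build is given in the sources used here. After sorting, columns were within 0.00188 of each other, so the arrays share 1 distribution, which removes changes common to most genes. Apart from this, values near the low end of the table, 5.62 being the lowest, are compressed. Of 25206 probe sets, 23185 paired with 1 symbol and 2021 with none. The number of arrays limits the precision.

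A linear model with 1 mean per group was fitted to all 23185 genes with lmFit, contrasts.fit and eBayes of limma 3.58.1 (R 4.3.3), with a shared spread (8 residual degrees of freedom) and no filter, with Benjamini-Hochberg adjusted p under 0.05 as the two-sided call. The fit was tested on simulated data. Every p of a group comparison is limma's. With 3 arrays against 3, an exact permutation test of 1 value cannot go below 0.10. Correlations used deviations from group means, with two-sided exact permutation within groups and adjustment over the 45 pairs. The labels describe separate animals, whose full strain name is not reported here.

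Members and lists were chosen with earlier results of these data known. All members were named, with list genes that passed and up to 4 a list otherwise, the 10 genes nearest and the 5 farthest from the members' mean deviation (predicted, RNA and chemosensory genes left out), and up to 3 genes of each list of other cell types; genes beyond this were chosen after their values were seen. Of 102 listed genes 97 were measured. Alternatives were array weights, a filter, a trended prior, 2 groups alone, arrays centred, group medians, the liver marker mean regressed out of each gene, and arrays left out.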

Additional observations from a re-analysis of the deposited data

Results flagged for a closer look

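Podxl, a mesothelial gene outside the 10 members, was singled out because its TSC22D4 effect differed with and without the LCN13 shRNA. The TSC22D4 shRNA went with a higher mean in the absence of the LCN13 shRNA (9.41 against 9.11 in control, n = 3) and a lower one in its presence (9.30 against 9.60). The interaction was -0.601 (SE 0.10, limma adjusted p = 0.0443), and it was lost in 11 of 12 fits that left out 1 array, with adjusted p up to 0.146, while its size stayed between -0.685 and -0.551.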

How the results depend on the processing

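Of 1064 member values under the alternatives, 1049 stayed on their side of the threshold, 15 passed under the alternative alone (Rspo1, Krt8 and Krt19, given above), and 64 changed sign, none of them called. Members called numbered 0 in every comparison of the main analysis. With array weights they were 2 in LCN13 against control, 2 in LCN13 against TSC22D4 and 1 in the F test, and both with the filter on level and with a trended prior they were 1, 2 and 1. Leaving out 1 array gave 0 to 1, 0 to 2 and 0 to 1.

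Counts over all genes were 272 for TSC22D4, 333 for LCN13 and 311 for both shRNAs against control, 239 for LCN13 against TSC22D4, 2 for both against LCN13, 92 for the interaction and 374 for the F test. Array weights gave 447, 680, 518, 1178 and 14 for the pairwise comparisons and 935 for the F test. Fitting 2 groups alone gave 142, 102, 126, 75 and 0. Both against LCN13 gave 7 with the filter and 0 with the trended prior. Without LCN13 replicates 5 and 6, counts were 100 for LCN13 against control, 0 for LCN13 against TSC22D4, 0 for both against LCN13, 35 for the interaction and 171 for the F test. Without 1 array at a time the ranges were 153 (TSC22D4 replicate 11) to 350, 205 to 426, 165 to 376, 2 (LCN13 replicate 5) to 582 (LCN13 replicate 8), 0 to 94 (LCN13 replicate 8), 47 to 104 and 209 to 531, in the order above. Fewer arrays or genes were tested in these fits, and the cause of the other shifts was not tested.

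Pairs of members passing the exact test were 1 of 45 in the main analysis, 3 with group medians and 0 to 4 without 1 array. With 1 array, or LCN13 replicates 5 and 6, left out, too few orders remain for a single pair to pass. A count of 0 there says little. With the liver marker mean regressed out the count was 16, by a permutation that is then not exact. No paired analysis was possible because the groups share no replicate number. Limits are the 3 arrays a group, chosen as representative, and values compressed near the low end of the table, where Krt19 lies.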
